A study of Mus musculus with 2 samples.

Results

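The 74 histone genes detected in hair follicle epithelium of newborn mice were followed across the cell cycle, across cell classes and between 2 single-cell libraries. Members were all listed genes whose symbol begins with Hist1h to Hist4h, H1f, H2a, H2b, H3a, H3c, H3f, H4c or H4f and that had at least 10 unique molecular identifiers (UMIs, 1 per captured mRNA molecule) in droplets of at least 2000 UMIs in each library. Of 32285 listed genes, 102 carried such a symbol and 74 passed. H2al1b, with 16 and 22 UMIs, lay just inside the limit. Of the symbols just outside it, Hist1h4m had 366 UMIs in 1 library and 0 in the other.

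Both libraries held tdTomato-positive epithelial cells sorted from the dermal fraction of the back skin of P1 (postnatal day 1) mice, after the epidermis had been removed with dispase. The mice carried K14-Cre, which is active in keratinocytes, together with a Cre-dependent tdTomato reporter. In the library labelled PADI4 cKO the Padi4 alleles were floxed (Padi4 fl/fl), so that Cre removes the gene in these cells. The other library was labelled WT, and the labels do not give its Padi4 alleles apart from a protocol text that names K14-Cre Padi4 fl/fl for both. Each genotype had 1 library, both in batch 1, and the number of mice behind each was not given, so there was no replicate check and no test. Intervals in brackets are 95% intervals and cover the counting of UMIs alone.

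The libraries held 143938990 and 143945294 UMIs, and 8071 cells (PADI4 WT) and 7392 cells (PADI4 cKO label) passed the limits, at medians of 14670 and 16208 UMIs. Here and in what follows, values of a pair are given in this order. After 50 and 27 fibroblast-like cells and 26 and 10 melanocyte-like cells had been set aside, 7995 and 7355 epithelial cells remained, and these are the cells described here. The keratinocyte markers Krt5 and Krt14 and the epithelial marker Epcam together took 2809 and 2229 CPM (counts per 1000000 UMIs), against 0.935 and 0.973 CPM for the immune list, of whose 5 markers 2 and 3 were at 0. The targeted gene, Padi4, had 98 UMIs in PADI4 WT cells and 92 in the other library, a log2 ratio of −0.12 (−0.54 to 0.31). The libraries stood apart in sex-linked genes: 26.8% of PADI4 WT cells and 99.7% of the cells labelled PADI4 cKO had Xist but no Y-linked UMIs. Only 14 cell barcodes occurred in both.

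Nuclear DNA is wound around nucleosomes, each built of the core histones H2A, H2B, H3 and H4, and linker histones of the H1 family bind the DNA between them. Replication-dependent histone genes lie in clusters and supply the histones that package new DNA in S phase. Their mRNAs typically lack introns and end in a conserved stem-loop in place of a poly(A) tail, and the stem-loop binding protein SLBP acts in their processing and stability. Replacement histones such as H3.3 and H2A.Z come from single genes with ordinary polyadenylated mRNAs and can be made and deposited outside S phase. The libraries were primed on poly(A), so a level is the captured share of an mRNA, and levels of different genes were not divided by length because the method counts 3′ ends.

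The 62 replication-dependent genes comprised 6 H1, 16 H2A, 16 H2B, 12 H3 and 12 H4 genes. Positions are on GRCm38. Hist1 on chr13:21715763-23764406 held 50 of them, Hist2 on chr3:96219865-96270132 held 9, Hist3 on chr11:58948920-58956830 held 2 and Hist4 on chr6:136801553-136804415 held 1. The 12 replacement members were H3f3a and H3f3b (both encode H3.3), H2afz and H2afv (H2A.Z), H2afx (H2A.X, which is phosphorylated at DNA breaks), H2afj, H2afy and H2afy2 (macroH2A), the linker histones H1f0 and H1fx, the testis variant H2al1b, and H3f3aos. The last is annotated as an antisense transcript overlapping the start of H3f3a and is a histone gene by symbol only. Whether counting used strand is not given in the sources used here, so its UMIs and those of H3f3a could not be separated with certainty.

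The stem-loop was found in the annotated transcripts of 44 replication-dependent genes. The sequences are shown because 25 of these genes, among them genes high in S phase such as Hist1h2ap and genes low in S phase such as Hist3h2a, shared an identical one. Stem bases are in capitals and loop bases in lower case, with T for U.
Shared by 25 genes of the H1, H2A, H2B and H3 families: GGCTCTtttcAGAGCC
Shared by Hist4h4, Hist1h4n, Hist1h4h, Hist1h4f, Hist1h4d and Hist1h4c: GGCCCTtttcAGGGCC
Shared by Hist1h2bk, Hist1h3f, Hist1h3e, Hist1h1t, Hist1h3c and Hist1h2bb: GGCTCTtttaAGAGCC
Shared by Hist1h4j and Hist1h4b: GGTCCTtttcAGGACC
In H2afx, the only replacement member with one: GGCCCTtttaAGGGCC
The first stem-loop lay at chr13:21833029-21833044 on the minus strand in Hist1h2ap, 3 bases before the annotated transcript end. In Hist1h2ac it lay at chr13:23683477-23683492 on the minus strand, with 2010 bases after it, and in Hist3h2a at chr11:58955172-58955187 on the plus strand, with 1643 bases after it. Of 32056 other listed genes with transcripts, 6 (0.0187%) held a stem-loop of this form in the last 300 bases. In H2afx 822 bases followed the stem-loop.

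Histone mRNA came mostly from few genes. The replication-dependent genes took 0.237% of the UMIs of PADI4 WT cells and 0.238% of those of the other library, and Hist1h2ap and Hist1h2ae (both H2A) accounted for 33.8% and 33.0% of this. The replacement genes took 0.715% and 0.692%, of which H3f3a, H3f3b and H2afz held 79.6% and 79.8%. Single replication-dependent genes ranged from 0.26 to 479 CPM in PADI4 WT cells and from 0.33 to 415 CPM in the other library.

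To ask how far histone mRNA followed the cell cycle, cells were assigned to G1, S or G2M from published lists of phase genes. The lists hold no gene with a symbol of the members' pattern, but they do hold other histone-related genes. With these left out, at 39 S and 51 G2M genes, the replication-dependent S over G1 log2 ratios were 1.21 and 0.94. G1 here means that neither score was above 0, and thus includes cells that do not divide. The summed level of the replication-dependent genes in PADI4 WT cells was 719 CPM in G1, 1682 CPM in S and 3837 CPM in G2M. In the library labelled PADI4 cKO it was 887, 1695 and 4009 CPM. In both libraries the level was thus higher in S than in G1 and highest in cells called G2M. The S level was 2.34-fold the G1 level in PADI4 WT cells, a log2 ratio of 1.23 (1.21 to 1.25), and 1.91-fold in the other library, a log2 ratio of 0.93 (0.91 to 0.95). The G2M level was 5.34-fold and 4.52-fold the G1 level. Replacement genes moved far less. Their summed level was 5228, 6347 and 8864 CPM in G1, S and G2M in PADI4 WT cells and 5062, 6086 and 8940 CPM in the other library, with S over G1 log2 ratios of 0.28 and 0.27.

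Counted by gene, 43 of the 54 replication-dependent genes with enough UMIs (100 over both phases) were at least 2-fold higher in S than in G1 in PADI4 WT cells, where 5.05% of all 12784 genes compared were. In the library labelled PADI4 cKO this held for 38 of 56, against 5.2% of 12864 genes. The median log2 ratio of the replication-dependent genes was 1.94 and 1.80, against −0.12 and −0.11 over all genes. Among replacement genes 2 of 11 and 2 of 10 passed, H2afz and H2afx in both libraries. At least 2-fold lower in S were 1 replication-dependent gene of PADI4 WT cells, Hist1h2bc, where 7.56% of all genes were, and 3 in the library labelled PADI4 cKO, Hist1h2bc, Hist1h2ac and Hist3h2a, where 7.11% were. For G2M over G1, 54 of 58 replication-dependent genes were at least 2-fold higher in each library, where 5.51% and 5.97% of all genes were. The phases also differed in depth, with medians of 10954, 16214.5 and 18589 UMIs per PADI4 WT cell in G1, S and G2M, and phases called on cells thinned to 2000 UMIs gave S over G1 log2 ratios of 1.30 and 1.09. The 44 genes that share over 10% of their end with another gene are described with the transcript ends. Without them the summed ratio fell to 0.27 and −0.00036. The 18 genes left include Hist1h2bc, which has many UMIs and log2 ratios of −1.35 and −1.45. Over these 18 genes the median ratio was 0.74 and 0.68, with 8 and 6 genes past 1 and 5 and 6 below 0. Raising the minimum to 500 UMIs, where fewer genes are compared, left 26 and 24 members of both sets at least 2-fold higher in S, against 45 and 40.

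Phase calls place a cell by its higher score, and splitting the cells by which scores were above 0 showed where the replication-dependent level peaked. With neither score above 0 the level was 719 CPM in PADI4 WT cells, and with the S score alone above 0 it was 624 CPM. With both above 0 it was 2617 CPM where S was the higher score and 4950 CPM where G2M was. With the G2M score alone above 0 it was 2878 CPM. The order was the same in the library labelled PADI4 cKO, at 887, 726, 2719, 4782 and 3025 CPM. The sum in cells with only the S score above 0 was thus lower than in cells with neither, with log2 ratios of −0.20 (−0.24 to −0.17) and −0.29 (−0.32 to −0.26). This came from the H2B genes, at 191 against 309 CPM in PADI4 WT cells and at 223 against 389 CPM in the other library. The H3 genes were higher with the S score alone, at 43.9 against 32.5 CPM and at 57.1 against 43.3 CPM. The level in cells with both scores above 0 and G2M higher was 7.93-fold and 6.59-fold that in cells with only the S score above 0. Within that group the quartiles of PADI4 WT cells were 2310 and 7077 CPM around a median of 4747 CPM, so single cells varied widely.

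**Figure D1:**
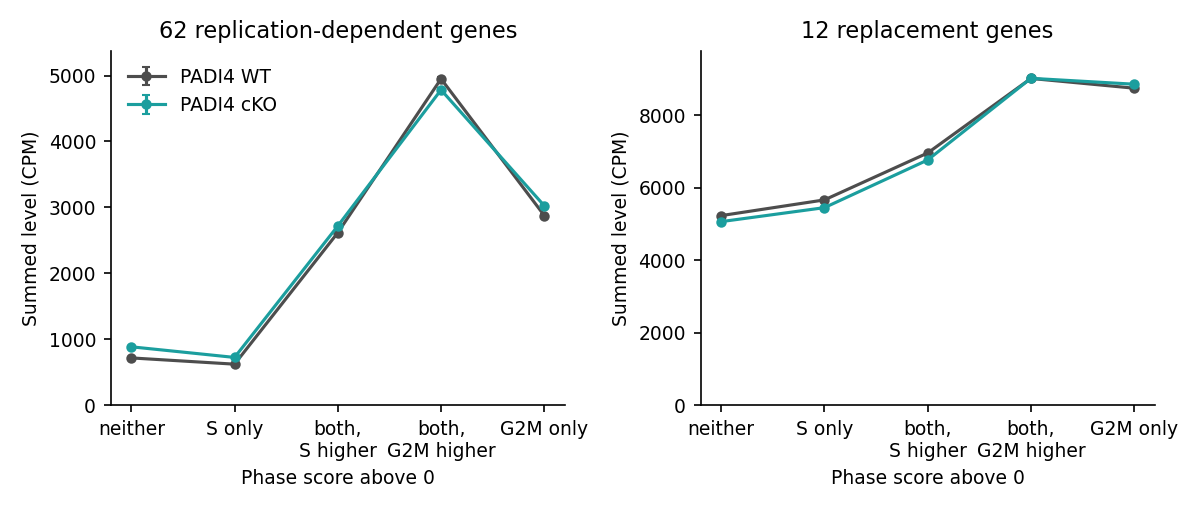
Summed level (CPM, linear axes from 0) of the 62 replication-dependent genes (left) and the 12 replacement genes (right) in cells grouped by which phase scores were above 0, with 95% counting intervals that are mostly smaller than the points. The replication-dependent level peaks at 4950 and 4782 CPM where both scores are above 0 and G2M is higher, while the replacement level increases from 5228 to 9008 CPM in PADI4 WT cells and stays near that level with G2M alone.

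This peak was shared by most replication-dependent genes, counted here also where UMIs were few. The share of all genes with their peak in the same cells is not given, so these counts describe the members alone. Of 62 replication-dependent genes, 53 had their highest level in cells with both scores above 0 and G2M higher in both libraries, 58 in PADI4 WT cells and 53 in the other library. The exceptions in both were Hist1h2ac and Hist1h2bc, highest in cells with neither score above 0, and Hist3h2a and Hist3h2ba, highest in cells with only the G2M score above 0. No replication-dependent gene was highest in cells with only the S score above 0. Between these cells and those with both scores above 0 and G2M higher, 55 of 57 and 54 of 56 replication-dependent genes were at least 2-fold higher in the latter, where 2.85% and 3.19% of all genes were.

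Among linker histones, Hist1h1b (H1.5, chr13:21779883-21780625, minus strand) went from 15.7 CPM in G1 to 196 in S and 468 in G2M in PADI4 WT cells, and from 15.1 to 188 and 459 CPM in the library labelled PADI4 cKO. Its S over G1 log2 ratio was 3.65 (3.52 to 3.78) and 3.63 (3.5 to 3.77), among the highest of all members. Hist1h1a (H1.1) was alike at a lower level, with ratios of 3.68 and 3.83. Hist1h1d (H1.3) and Hist1h1e (H1.4) differed less between S and G1, with ratios of 1.25 and 1.17 for the former and 0.72 and 0.47 for the latter. Hist1h1c (H1.2) was not raised in S, with ratios of −0.07 (−0.16 to 0.02) and −0.34 (−0.42 to −0.25). It stood at 55.9, 53.2 and 80.6 CPM in the 3 phases of PADI4 WT cells and at 70.3, 55.7 and 86.0 CPM in the other library. H1 genes of the same cluster thus ranged from far higher in S than in G1 to not raised in S. Hist1h1e overlaps Hist1h2be, and 99.1% of the 31-base stretches at its end occur in another listed gene, so its level is uncertain.

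H2A genes had the largest phase difference of the 5 families. Their summed S over G1 log2 ratio was 2.22 in PADI4 WT cells and 1.86 in the other library, and their G2M level was 11.6-fold and 9.68-fold the G1 level. Hist1h2ap (chr13:21833026-21833507, minus strand) stood at 31.9, 329 and 850 CPM in G1, S and G2M of PADI4 WT cells and at 35.3, 290 and 784 CPM in the other library. Hist1h2ae (chr13:23570517-23571220, minus strand) stood at 24.9, 219 and 571 CPM and at 31.3, 247 and 705 CPM. Both were thus low in G1, with S over G1 log2 ratios of 3.37 and 3.03 for Hist1h2ap and of 3.14 and 2.98 for Hist1h2ae. Hist1h2af had the highest S over G1 ratio of the PADI4 WT cells, with a log2 value of 4.46 (3.62 to 5.6), from 0.30 to 6.89 CPM, and 4.05 (3.25 to 5.13) in the other library. Hist1h2ab had ratios of 3.397 and 3.20.

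A pair of H2A genes went the other way. Hist1h2ac stood at 50.8, 31.8 and 46.4 CPM in G1, S and G2M of PADI4 WT cells and at 80.4, 38.3 and 53.2 CPM in the library labelled PADI4 cKO, with S over G1 log2 ratios of −0.68 (−0.78 to −0.57) and −1.07 (−1.16 to −0.98). Hist3h2a stood at 25.5, 13.2 and 33.0 CPM and at 24.6, 12.1 and 35.8 CPM, with ratios of −0.95 and −1.02. Both were therefore lowest in S.

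H2B as a family was lower in S than in G1, with log2 ratios of −0.25 (−0.29 to −0.21) and −0.47 (−0.51 to −0.44), and this rested on 1 gene. Hist1h2bc stood at 240, 94.4 and 153 CPM in G1, S and G2M of PADI4 WT cells and at 312, 114 and 142 CPM in the library labelled PADI4 cKO, and had the lowest S over G1 log2 ratios of the members with enough UMIs, at −1.35 (−1.41 to −1.29) and −1.45 (−1.50 to −1.40). It held 77.7% and 80.3% of the H2B UMIs of G1 cells and 33.4% and 35.2% of those of all replication-dependent genes. Without it the H2B ratio was 1.27 and 1.11 and the ratio over all replication-dependent genes was 1.73 and 1.46. Its annotated transcript is spliced, with 2 exons at chr13:23684199-23692908 on the plus strand, and holds no stem-loop.

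H3 and H4 genes as families were higher in S than in G1 and higher again in G2M. With the S score alone above 0 the H4 level was 52.3 and 56.4 CPM, close to the 50.02 and 54.8 CPM with neither score above 0. The H3 level was 32.5, 111 and 254 CPM in G1, S and G2M of PADI4 WT cells and 43.3, 127 and 285 CPM in the library labelled PADI4 cKO, with S over G1 log2 ratios of 1.77 and 1.55. The H4 level was 50.02, 130 and 294 CPM and 54.8, 121 and 305 CPM, with ratios of 1.37 and 1.15. Hist1h3b had the highest ratio of the library labelled PADI4 cKO, 4.45 (3.42 to 6.03), against 3.54 (2.78 to 4.53) in PADI4 WT cells, intervals that overlap. Hist1h4d, the most abundant H4 gene, went from 15.2 CPM in G1 to 34.4 in S and 118 in G2M in PADI4 WT cells. The unequal sums of the core histones are sums of captured mRNA and say nothing of protein amounts.

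**Figure D2:**
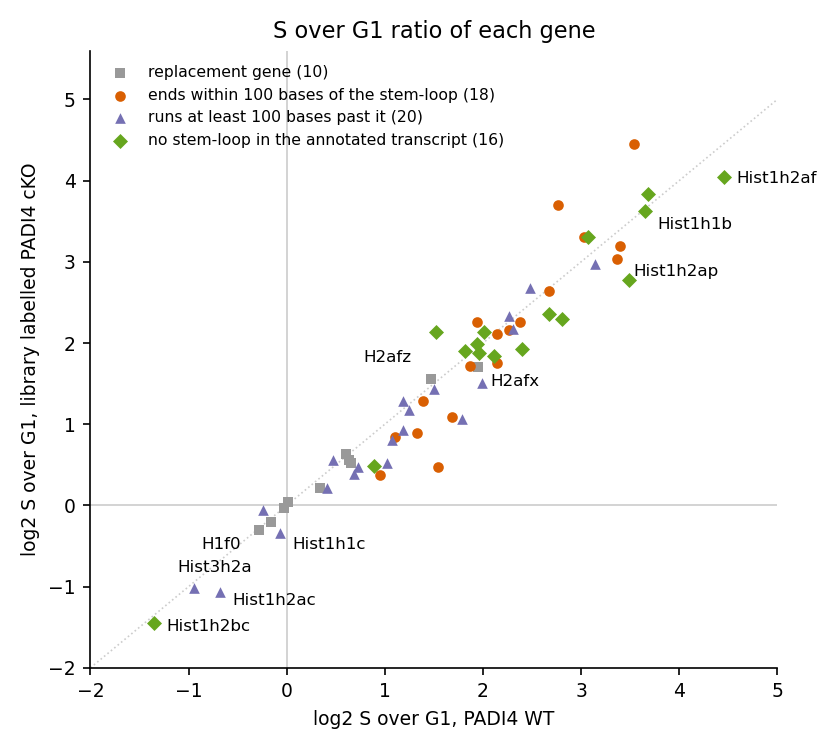
S over G1 log2 ratio of each gene with at least 100 UMIs in both phases together, in PADI4 WT cells (x axis) and in the library labelled PADI4 cKO (y axis), where each point is 1 gene, shape and color show how its annotated transcript ends, and the dotted line marks equal ratios. Points run from Hist1h2bc at −1.35 and −1.45 to Hist1h2af at 4.46 and 4.05, and among those farther from the line are Hist1h2bp at 1.55 and 0.47 and Hist1h3c at 2.77 and 3.70.

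Among replacement genes, H2afz (chr3:137864487-137866922, plus strand) stood at 572, 1579 and 2385 CPM in G1, S and G2M of PADI4 WT cells and at 500, 1476 and 2382 CPM in the library labelled PADI4 cKO, with S over G1 log2 ratios of 1.47 (1.44 to 1.49) and 1.56 (1.54 to 1.59). H2afx (chr9:44334694-44336077, plus strand, 1 exon) stood at 27.5, 106 and 366 CPM and at 30.6, 99.4 and 380 CPM, with S over G1 ratios of 1.95 and 1.70 and G2M over G1 ratios of 3.73 and 3.64. H2A.X and H2A.Z mRNA thus followed the cycle like many replication-dependent genes. H2afx was highest with the G2M score alone above 0, at 398 and 425 CPM, later than the peak of the replication-dependent genes. H2afv, the other H2A.Z gene, stood at 220, 334 and 583 CPM and at 181, 282 and 527 CPM.

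The macroH2A genes differed from each other. H2afy had its highest level, 327 and 330 CPM, in cells with both scores above 0 and G2M higher. H2afy2 was highest where both scores were above 0 and S was higher, at 68.1 and 67.1 CPM, against 40.5 and 40.2 CPM with the G2M score alone above 0. It was the only member with enough UMIs that stood higher in S than in both G1 and G2M, with S over G1 log2 ratios of 0.65 and 0.52 and G2M over G1 ratios of 0.05 (−0.04 to 0.15) and −0.05 (−0.14 to 0.05).

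The H3.3 genes were the most abundant members and differed little between phases. H3f3a stood at 1899, 1918 and 2078 CPM in G1, S and G2M of PADI4 WT cells, with S over G1 log2 ratios of 0.01 (−0.0011 to 0.03) and 0.04 (0.02 to 0.05) in the libraries. H3f3b stood at 1843, 1645 and 2440 CPM, with ratios of −0.16 and −0.20. H2afj stayed between 150 and 164 CPM in the phases of PADI4 WT cells, with a ratio of −0.03 (−0.08 to 0.03) in each library. H1f0 (H1.0), a linker histone known from cells that have stopped dividing, stood at 222, 183 and 364 CPM and at 230, 187 and 392 CPM, lowest in S and highest in G2M. H1fx stood at 67.3, 85.2 and 134 CPM in PADI4 WT cells. H3f3aos stood at 2.58, 1.36 and 1.53 CPM in PADI4 WT cells and thus did not go with H3f3a, and H2al1b had 16 and 20 UMIs over all epithelial cells, too few to compare.

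**Figure D3:**
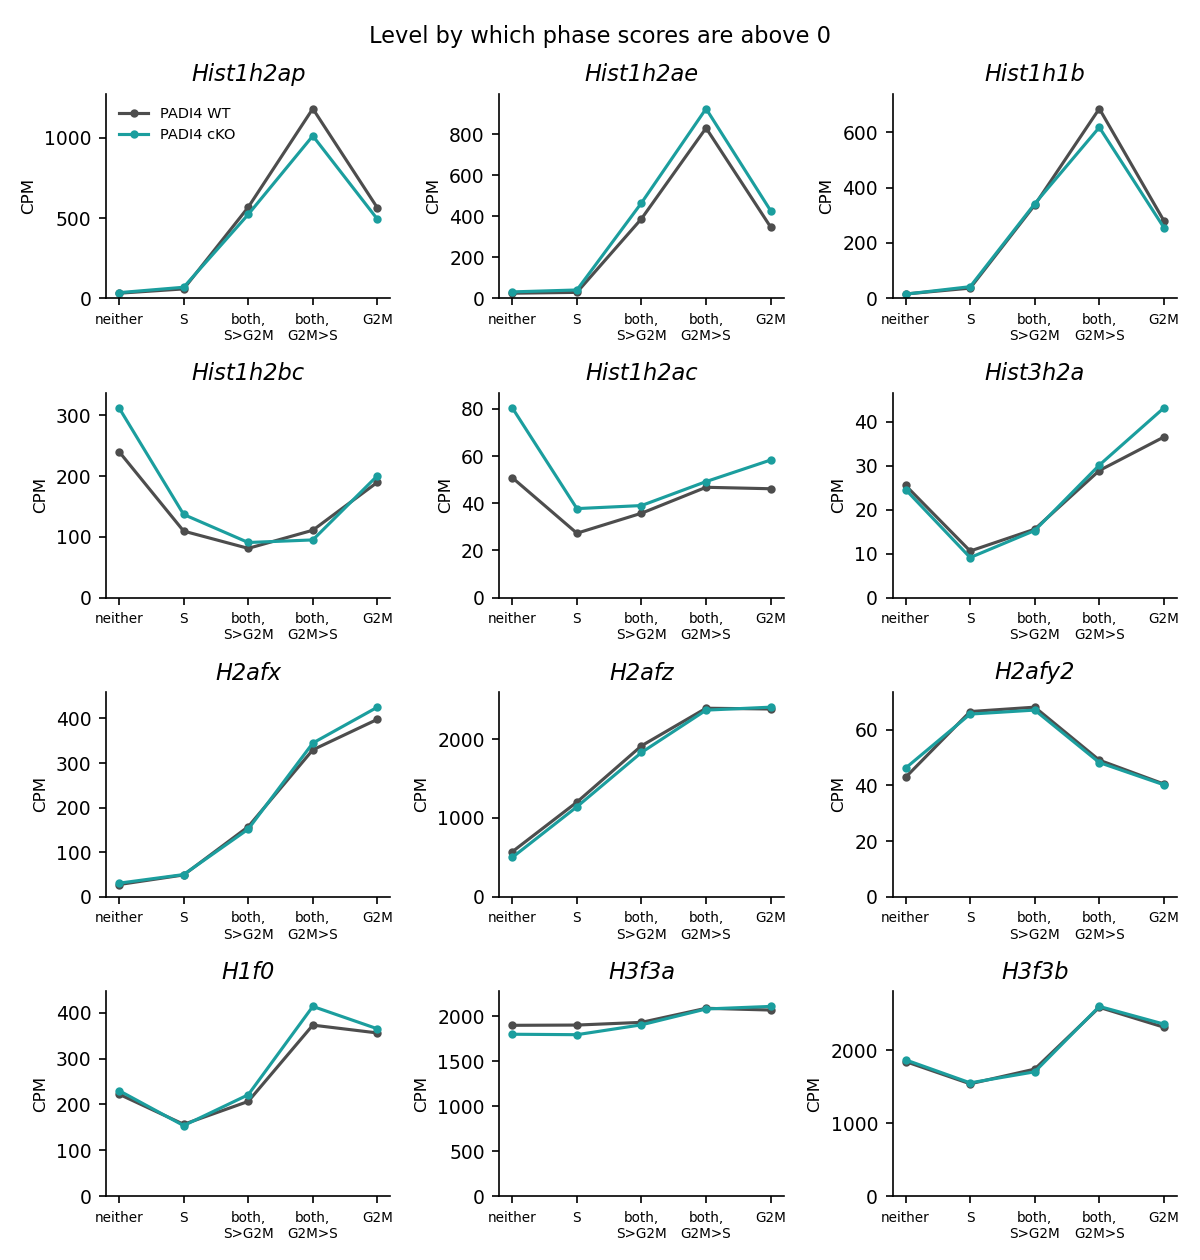
Level (CPM, each panel on its own axis from 0) of 12 histone genes in cells grouped by which phase scores were above 0 (S>G2M and G2M>S mark the higher score), with 1 line per library. Hist1h2ap, Hist1h2ae and Hist1h1b peak sharply where both scores are above 0 and G2M is higher, Hist1h2bc and Hist1h2ac are highest with neither, and H2afy2 is highest around the S groups.

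How a transcript is annotated to end went with the S over G1 ratio. The 21 replication-dependent genes whose transcript stops within 100 bases of the stem-loop had median S over G1 log2 ratios of 2.14 in PADI4 WT cells and 2.11 in the other library. The 23 whose transcript runs at least 100 bases past it had medians of 1.03 and 0.80, and the 18 with no stem-loop in the annotated transcript 2.06 and 2.06. All genes are counted here, also those with few UMIs. Hist1h2ac, Hist3h2a and Hist1h1c, with low ratios, were among the genes that run past the stem-loop, but so was Hist1h2ae, by 151 bases, with high ones. Read sharing moved with this feature: all 21 genes of the first kind, 9 of the 23 and 14 of the 18 shared over 10% of their end with another listed gene. The 44 replication-dependent genes above 10% had medians of 2.0 and 1.92 and the other 18 had 0.74 and 0.68, and the part of either feature in the difference was not tested. The UMIs of Hist1h2ap (93.4% shared), Hist1h2af (85.9%), Hist1h3b (75.7%), Hist1h2ab (63.0%) and Hist1h2ae (58.3%) are uncertain for this reason, while Hist1h1b (4.68%), Hist1h1a (0.43%), Hist1h2ac, Hist3h2a and Hist1h1c (0%) shared little or nothing. Hist1h2ap shared most with Hist1h2ao and Hist1h2ae with Hist1h2ad. Of the replacement members H2al1b (97.4%) and H3f3aos (11.4%) shared over 10%, and the others at most 6.86%.

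Promoter motifs differed by family. RefSeq windows (GRCm38.p6) from 250 bases before to 50 bases after the start were matched for 66 of the 74 members and searched on both strands for CCAAT, for the octamer ATTTGCAT and for the TATA box letters TATAAA. Among replication-dependent members, the first of these was present in all matched H1, H2A, H2B and H3 windows (6, 15, 14 and 10) and in 3 of 11 H4 windows. It was present in 6 of 10 replacement windows, but not in those of H1f0, H1fx, H2afy and H2al1b, and in 37.4% of 32851 windows of all genes. The octamer was present in 6 of 15 H2A and 6 of 14 H2B windows of replication-dependent members and in none of their H1, H3 or H4 windows. It was also present in 1 of 10 replacement windows, that of H3f3b, and in 1.74% of all windows. TATAAA was present in 13.6% of all windows, in 4 to 10 windows of each replication-dependent family and in 1 of 10 replacement windows. The octamer is shown with its flanks for genes at both ends of the cell cycle range, octamer in capitals, 5′ to 3′ on the strand given.
Hist1h2ae and Hist1h2bg, chr13:23571331-23571358, plus strand: tgagtcccttATTTGCATagaacctcta
Hist1h2ab, chr13:23750949-23750976, minus strand: tgagctcctcATTTGCATaaaggcctgc
Hist1h2ac, chr13:23684072-23684099, plus strand: tggaaacttcATTTGCATaatcccaccc
Hist3h2a, chr11:58954556-58954583, minus strand: agccttcctaATTTGCATatgccttacc
The first octamer lies between a pair of divergent genes, Hist1h2ae and Hist1h2bg, and falls in the windows of both. S over G1 log2 ratios in PADI4 WT cells were 3.14 for Hist1h2ae, 1.03 for Hist1h2bg and 3.397 for Hist1h2ab but −0.68 for Hist1h2ac and −0.95 for Hist3h2a, so genes with the octamer stood at both ends. A match describes letters in the window, not binding.

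Genes that act on histone mRNA or protein were set beside the members. Of 11 genes for histone mRNA processing that are not among the phase genes, 0 in PADI4 WT cells and 1 in the other library were at least 2-fold higher in S than in G1, where 5.05% and 5.2% of all genes were. The exception, Zfp473, which binds the processing machinery, was at 1.28 and 1.14 CPM in S. Npat, the coactivator of histone gene transcription, had S over G1 log2 ratios of 0.82 and 0.68. Of 20 histone chaperones and deposition factors outside the phase lists, 6 passed in each library, against the same shares of all genes: Asf1b (4.37 and 4.22), Tonsl (2.51 and 2.51), Mms22l (2.36 and 2.12), Chaf1a, a subunit of the CAF-1 complex that deposits H3 and H4 on new DNA (2.35 and 2.36), Hat1 (1.60 and 1.48) and Ssrp1 (1.078 and 1.035). Hira and Daxx, which handle H3.3, had ratios of 0.26 and 0.12 in PADI4 WT cells. Slbp itself is one of the S phase genes, so its level across phases is part of the phase call.

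To ask whether cell classes differed, clusters made without histone genes were named from marker lists as LPC-like (lower proximal cup), GL-like (germinative layer), ORS-like (outer root sheath), IRS-like (inner root sheath), Cx-like (hair cortex) and SG-like (sebaceous gland). The summed replication-dependent level was highest in GL-like cells, at 3114 CPM in PADI4 WT cells and 3577 CPM in the other library. It was 2743 and 3110 CPM in IRS-like, 2664 and 2530 in LPC-like, 2030 and 1564 in ORS-like, 1716 and 1944 in Cx-like and 1498 and 1589 in SG-like cells. Phase makeup moved with this order: G1 cells made up 1.48% and 0.78% of GL-like cells but 69.5% and 73.6% of SG-like cells.

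Within a single phase the classes lay closer together. Among G1 cells of the PADI4 WT library the level was 953 CPM in Cx-like, 889 in SG-like, 759 in IRS-like, 629 in ORS-like and 602 in LPC-like cells. In the other library it was 1008, 1185, 842, 857 and 776 CPM in the same order. The highest was 1.58-fold and 1.53-fold the lowest, and LPC-like cells, which stood above ORS-like, Cx-like and SG-like cells over all phases, were lowest in both libraries. This order depended on the settings. With phases called on thinned cells the lowest class of PADI4 WT was ORS-like, and with a Leiden clustering resolution of 0.5, which left no Cx-like class, IRS-like cells were highest and ORS-like cells lowest in both libraries. At a resolution of 2.0 Cx-like cells were highest in the library labelled PADI4 cKO. With 14 and 7 G1 cells, the GL-like class was left out. ORS-like and LPC-like cells of PADI4 WT, at intervals of 615 to 644 and 569 to 637 CPM, were not separated by counting error. Among G2M cells of PADI4 WT the ORS-like cells were highest, at 4641 CPM, and the Cx-like cells lowest, at 3049 CPM, but the library labelled PADI4 cKO had its lowest level, 3947 CPM, in LPC-like cells. Cluster 12, unnamed because it had fewer than 3 raised markers of any 1 list, had the lowest G1 level of all 11 classes and clusters compared, 318 and 313 CPM.

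**Figure D4:**
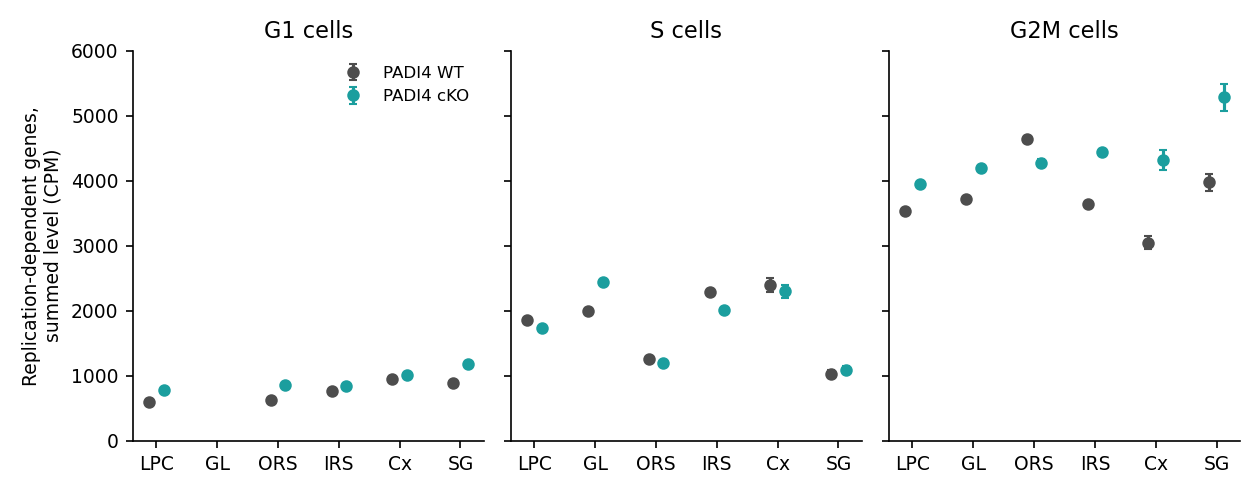
Summed level (CPM, linear axis from 0) of the 62 replication-dependent genes in 6 named classes, in cells called G1, S and G2M, with 95% counting intervals. Classes with fewer than 20 cells of a phase in either library are not drawn, and G1 levels stay between 602 and 1185 CPM where G2M levels reach 5281 CPM.

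Single members had class patterns of their own, and the highest and lowest values given for them are those of the named classes alone. H1f0 was highest in IRS-like cells, at 391 and 434 CPM, and lowest in SG-like cells, at 171 and 205 CPM, 2.28-fold and 2.11-fold apart, and among G1 cells the values were 304 and 290 CPM against 154 and 194 CPM. H3f3a was highest of the named classes in Cx-like cells, at 2922 and 2851 CPM, against 1626 and 1546 CPM in ORS-like cells, and H3f3b in IRS-like cells, at 2653 and 2580 CPM. Among the named classes the H3.3 genes thus had their highest levels in different differentiated classes. A high H3f3a level was not limited to these. In the unnamed cluster 3, with 8.83% and 6.74% of its cells in G1, H3f3a stood at 3089 and 2975 CPM in G2M cells, against 2789 and 2966 CPM in Cx-like G2M cells. The unnamed cluster 9 had 80.8% and 89.5% of its cells in G1. In these G1 cells H3f3a stood at 3834 and 3734 CPM, against 3129 and 2946 CPM in Cx-like G1 cells. H2afy2 was highest in ORS-like and LPC-like cells, at 67.3 and 67.6 CPM in the former, and lowest in Cx-like cells, at 21.0 and 27.1 CPM.

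Of the named classes, Hist1h2bc was highest in Cx-like cells, at 306 and 323 CPM, and lowest in GL-like cells, at 95.6 and 96.1 CPM. Among G1 cells of the named classes it still stood highest in Cx-like cells, at 386 and 388 CPM, and lowest in LPC-like cells, at 142 and 205 CPM. The G1 cells of the unnamed cluster 12 lay lower, at 73.6 and 63.8 CPM, and those of cluster 9 stood at 352 and 389 CPM. H2afz and H2afx were highest of the named classes in GL-like cells, at 2377 and 2268 CPM for H2afz. They were lowest of these in SG-like cells, at 850 and 702 CPM for H2afz. Among G2M cells the unnamed cluster 5 stood above GL-like cells, at 2885 and 2855 CPM for H2afz against 2555 and 2488 CPM. GL-like cells also had the highest replication-dependent sum in both libraries, while its lowest value was in SG-like cells of PADI4 WT but in ORS-like cells of the other library. The widest spread over classes among members with at least 500 UMIs was that of Hist1h3h, Hist1h2ag, Hist1h2ah, Hist1h4k and Hist1h3g. In the same order, 94.2%, 79.8%, 91.2%, 86.2% and 63.4% of their end stretches occur in another listed gene, so their UMIs are uncertain. Hist1h2ag stood at 29.1 and 25.3 CPM in GL-like and at 4.41 and 4.74 CPM in SG-like cells, and Hist1h3g (H3) at 10.7 and 12.9 CPM against 2.31 and 3.23 CPM. Hist1h2ah stood at 7.68 and 7.0 CPM against 1.26 and 1.078 CPM, Hist1h3h at 6.08 and 6.58 CPM against 1.47 and 0.43 CPM, and Hist1h4k at 5.10 and 4.77 CPM against 0.84 and 0.86 CPM. All of these were thus higher in the named class with the smallest share of G1 cells than in the named class with the largest.

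Between the libraries the summed levels were close. The replication-dependent genes stood at 2371 CPM in PADI4 WT cells and at 2377 CPM in the library labelled PADI4 cKO, a log2 ratio of 0.003 (−0.004 to 0.010), and the replacement genes at 7154 and 6920 CPM, a ratio of −0.05. Of 61 replication-dependent genes compared, 1 was past 0.5 in log2 ratio, Hist2h3c1, at 70 and 112 UMIs with a ratio of 0.65 (0.21 to 1.11), where 1.58% of 14900 genes were past 0.5 in that direction. Of 11 replacement genes, 1 was below −0.5, H3f3aos, at 223 and 145 UMIs with a ratio of −0.64 (−0.96 to −0.34), where 3.59% of all genes were. These shares do not set the members apart from other genes.

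Phases and classes differed between the libraries more than the sum over all cells did. In G1 cells the replication-dependent level was 719 against 887 CPM, a log2 ratio of 0.30 (0.28 to 0.33), in S cells the ratio was 0.011 (−0.004 to 0.026) and in G2M cells 0.06 (0.05 to 0.07). At the same time the share of cells called G2M was 36.1% in PADI4 WT cells and 29.4% in the other library. In G1 cells 7 of 42 replication-dependent genes were past 0.5, against 2.01% of all genes, and 2 were below −0.5, against 3.42%. The 7 were Hist1h3e (0.85), Hist1h2bf (0.81), Hist1h2ac (0.66), Hist1h3d (0.64), Hist1h2an (0.59), Hist1h2ak (0.56) and Hist1h4n (0.54), and the 2 were Hist1h3c (−0.92) and Hist1h2ag (−0.69). Of these, Hist1h2ac and Hist1h3d share no end stretch with another listed gene. The others share from 64.9% (Hist1h3c) to 89.0% (Hist1h2an), so their UMIs are uncertain. Hist1h2bc, with the most UMIs, had a ratio of 0.38 (0.34 to 0.42) in G1 cells. Among cells with Xist but no Y-linked UMIs the G1 ratio of the replication-dependent sum was 0.26 (0.22 to 0.30), but in S it was −0.02 (−0.05 to −0.00073) and in G2M −0.14 (−0.15 to −0.12), at 4411 against 4011 CPM, so the direction in G2M turned. Over all phases it was −0.13.

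By class, the replication-dependent ratio was −0.38 (−0.39 to −0.36) in ORS-like cells, −0.07 in LPC-like, 0.08 in SG-like, 0.18 in Cx-like, 0.18 in IRS-like and 0.20 in GL-like cells. In ORS-like cells 23 of 53 replication-dependent genes were below −0.5, against 2.98% of all genes, and 3, Hist1h2ac, Hist1h2bc and Hist1h3d, were past 0.5, against 2.01%. The share of ORS-like cells called G2M, which have the most of this mRNA, was 22.6% in PADI4 WT cells and 10.8% in the other library. Within ORS-like G1 cells the level was 629 against 857 CPM, within S cells 1260 against 1195 CPM and within G2M cells 4641 against 4268 CPM. The lower level over all ORS-like cells was therefore not present in each phase.

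Hist1h2ae was the only member past 0.5 in the same direction in 3 classes, with log2 ratios of 0.52 in Cx-like, 0.5002 in GL-like and 0.55 in IRS-like cells, where 2.5%, 1.25% and 1.04% of all genes were, but −0.54 in ORS-like cells. Over all epithelial cells it stood at 322 and 369 CPM, a ratio of 0.19 (0.18 to 0.21), while the related Hist1h2ap stood at 479 and 415 CPM, a ratio of −0.20 (−0.22 to −0.19). Among cells with Xist but no Y-linked UMIs these ratios were −0.01 and −0.35. Hist1h3d stood at 22.6 and 31.8 CPM, a ratio of 0.49 (0.42 to 0.56), and H2afv at 413 and 350 CPM, a ratio of −0.24 (−0.25 to −0.22). With 1 library per genotype, the sex-linked difference between the libraries and an effect of genotype cannot be told apart. Clusters 15 and 20 held 45 and 172 PADI4 WT cells but 0 and 7 of the other library, and were kept in all sums over epithelial cells.

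**Figure D5:**
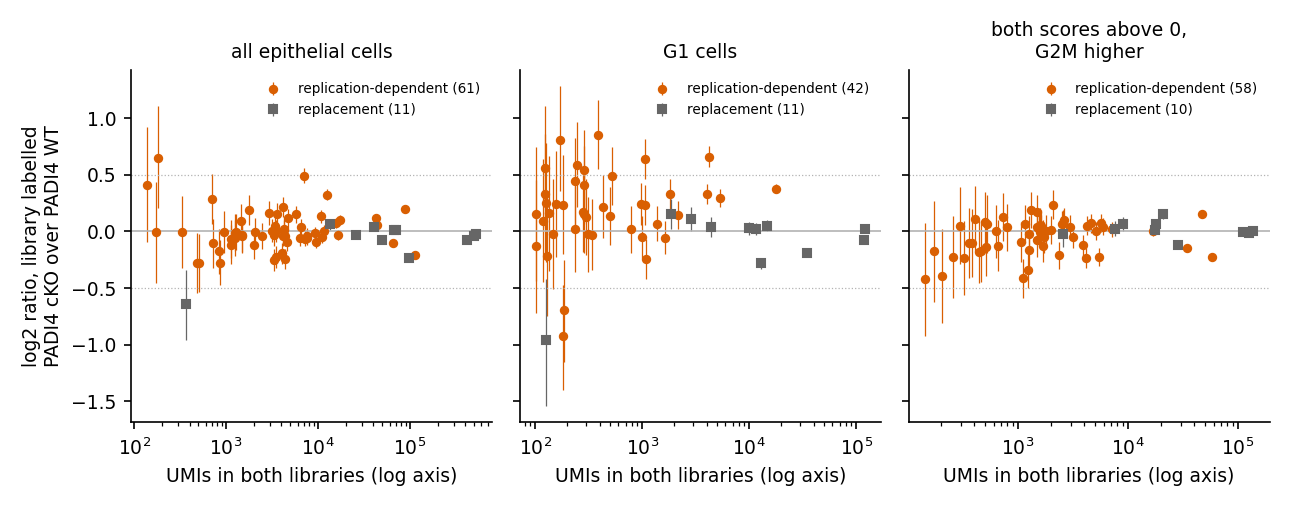
Log2 ratio of each histone gene, library labelled PADI4 cKO over PADI4 WT, against its UMIs in both libraries (log axis), in all epithelial cells, in G1 cells and in cells with both scores above 0 and G2M higher, where points are genes with at least 100 UMIs, bars are 95% counting intervals and dotted lines mark 0.5 and −0.5. Of the replication-dependent genes, 1 of 61 lies outside those lines in all epithelial cells, against 7 above and 2 below of 42 in G1 cells, where their median is 0.19.

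RNA set free from broken cells sets a floor to low values. From collagen and hemoglobin genes, at most 7.84% and 6.73% of the UMIs of all epithelial cells together came from free RNA, in which the replication-dependent genes stood at 2577 and 2701 CPM. At these pooled shares it could give up to 202 and 182 CPM, against 719 and 887 CPM in G1 cells. The share was not measured by phase, and G1 cells had fewer UMIs than the others. For Hist1h2ap it could give up to 35.1 and 25.05 CPM and for Hist1h1b up to 19.4 and 15.2 CPM, at or near their G1 levels, so these G1 levels were not separated from free RNA. For Hist1h2bc it was at most 9.87 and 7.66 CPM, far below its G1 level. Of other cell types, the fibroblast list summed to 282, 795 and 883 CPM in G1, S and G2M of PADI4 WT cells. Of this, 1 gene of 8 gave 269, 784 and 873 CPM. Dcn, a gene of this list, was also among the 10 leading genes of the unnamed epithelial cluster 5. The sum is thus not a measure of fibroblasts alone, and their part in the phase differences was not tested.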

How the data were processed

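The deposited files hold raw UMI counts per gene and droplet, which the authors made with Cell Ranger 7.1.0 (per the file headers) from 10x 3′ libraries aligned to mm10 (per the labels). Empty droplets are included, and the authors' CellBender and Harmony steps are not part of these counts. The intron setting is not given in the sources used here.

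Cells had 2000 to 60000 UMIs, 1000 to 8000 genes, at most 20% mitochondrial and 1% hemoglobin UMIs, and a ribosomal share from the 5th to the 99th percentile. Doublet calls (408 and 332 cells) were kept. Cells were scored for phase (43 S and 54 G2M genes) and clustered in scanpy 1.11.5 (1000 variable genes without histone genes, phase scores regressed out, 50 components, 15 neighbors, Leiden resolution 1.0, leidenalg 0.10.2). Clusters were named from marker lists, and only classes with at least 50 cells per library were compared. The clusters may differ from those of the study because names were rebuilt.

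UMIs were summed over cells and given as CPM with exact Poisson intervals. Log2 ratios (0.5 UMI added) have exact conditional binomial intervals (scipy 1.17.1). Genes needed 100 UMIs over both groups compared, and a call is a log2 ratio past 1 (phases) or 0.5 (libraries). With 1 library per genotype no test was run.

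Of 32285 gene identifiers, 32235 were found in GENCODE vM21 (GRCm38), which gave positions and stem-loops. Read sharing compared a gene's final 500 transcript bases, as 31-base pieces, with every other listed gene. Free RNA was estimated from droplets under 100 UMIs. The scripts were tested on simulated data.

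Values were given by rule for every replacement gene, the 10 replication-dependent genes with the most UMIs, the 5 highest and 5 lowest S over G1 ratios, the 5 largest spreads over classes and genes past 0.5 in at least 3 classes. Other genes named were picked after their values were seen. The members and lists were chosen with earlier results of these data known. Alternatives changed the phase lists and depth, cell limits, doublets, scaling, free RNA, cell weights, cells by Xist, read sharing, UMI minimums, centring and clustering.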

Additional observations from a re-analysis of the deposited data

Results flagged for a closer look

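Hist1h4m drew attention because its UMIs came from 1 library alone, which also kept it out of the members. This H4 gene at chr13:21811746-21812147 (GRCm38, plus strand) had 344 UMIs in the epithelial cells of PADI4 WT, or 2.70 CPM (2.43 to 3.005), and 0 UMIs in the library labelled PADI4 cKO. Against a floor of 3 UMIs for a count of 0, or 0.0232 CPM, the level there was at least 116.65-fold lower than the measured PADI4 WT level. This bound leaves out the counting error of PADI4 WT, and the exact 95% interval for 0 UMIs reaches a little higher, to 0.0285 CPM. Within the PADI4 WT library it was present in cells with Xist but no Y-linked UMIs, at 142 UMIs and 4.46 CPM, and in cells with Y-linked UMIs but no Xist, at 146 UMIs and 1.89 CPM. Of the 31-base stretches at its end, 91.7% occur in another listed gene, most in Hist1h4n, which was detected in both libraries. The cause was not tested.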

How the results depend on the processing

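Of 84 alternative values, 52 moved by no more than their counting interval or, for counts of genes, by less than 1.5 times. The other 32 moved further, and 0 were counted as reversing a call, though not every difference held. With 1 library per genotype there was no replicate to leave out. No paired analysis was possible because each genotype had 1 library, and the libraries shared only the replicate number 1. Calling phases on cells thinned to 2000 UMIs gave S over G1 log2 ratios of 1.30 (PADI4 WT) and 1.09 (library labelled PADI4 cKO) for the replication-dependent sum and 0.27 (PADI4 WT) for the replacement sum, and a ratio of highest to lowest class among G1 cells of 1.44 (cKO label). Without mitochondrial and ribosomal protein genes the replacement ratios were 0.30 and 0.28. Subtracting the UMIs expected from empty droplets gave 1.46 and 1.082 for the replication-dependent sum, 0.31 and 0.29 for the replacement sum, and class ratios of 1.85 and 1.69. The mean of per-cell shares gave 1.09 and 0.80, and 0.019 between the libraries. In cells with Xist but no Y-linked UMIs the replacement ratio of PADI4 WT was 0.22 and the ratio between libraries −0.13. Leaving out genes with over 10% shared stretches brought S over G1 to 0.27 and −0.00036. The replication-dependent sum was then no longer higher in S in the library labelled PADI4 cKO. The same step brought the ratio between libraries to 0.026. With a minimum of 500 UMIs, 26 and 24 members were at least 2-fold higher in S and 0 were past 0.5 between libraries, where fewer genes were compared. Leiden resolution 0.5 gave class ratios among G1 cells of 1.39 and 1.17, and 2.56 for H1f0 (cKO label). Resolution 2.0 gave 1.47 and 1.24, and 2.51 for H1f0. Leaving out Hist1h2bc, an alternative added after seeing the data, gave 1.73 and 1.46, and −0.0057 between the libraries. Where no construction of the alternative shows it, the cause was not tested. Depth limits the rare genes, since H2al1b had 16 and 20 UMIs, and free RNA limits low G1 levels.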

Other observations

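H2al1b, a testis variant of H2A, had nearly all of its few UMIs in 1 cluster. Cluster 12, which has no class name and is led by Tagln, Olfml2b, Acta2 and Krt19, held 12 of the 16 UMIs of PADI4 WT cells and 20 of 20 in the other library, or 1.70 and 3.0 CPM, in 9 and 16 cells with a UMI among 414 and 347. In these transcripts 97.4% of the 31-base stretches at the end occur in another listed gene, most in H2al1e, so that the gene of origin is uncertain. The same cluster had the lowest summed replication-dependent level among G1 cells.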
